A study of Mus musculus with 6 samples.

Results

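The endoplasmic reticulum (ER) folding and degradation genes described here are 33 genes for chaperones and disulphide isomerases of the ER lumen, for parts of ER-associated degradation (ERAD), for the translocon and for the sensors of the unfolded protein response (UPR). They were taken by name from a list of ER folding genes, genes of the ATF6 and XBP1 arms and ERAD genes, with the targets of ATF4 left out, and were found on the arrays through the RefSeq accession of each probe. All 33 had a probe, 42 probes in all. A probe well above background on every array of at least 1 genotype was found for 31 of the 33, and these 31 stand among the 12785 genes tested. Hyou1, a large luminal chaperone of the Hsp70 family, and Edem2, a lectin-like ERAD factor, were not well above background on any array and were not tested.

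The tested lenses came from 3-month-old mice with the W151C knock-in of βB2-crystallin, in which genome editing of Crybb2 put a cysteine in place of the tryptophan at codon 151 (3 arrays, replicates 1, 2 and 4 in the labels). They were set against lenses of 3-month-old wild type mice (3 arrays, replicates 1, 2 and 3). Each array was hybridised with Cy3-labelled RNA of whole lens. The labels do not state the zygosity, the strain or whether an array held lenses of several animals, so the spread between arrays may be technical in part. In RNA of a whole lens, fewer cells of a type and less RNA per cell cannot be told apart.

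Proteins that enter the ER are folded there with the help of the Hsp70 chaperone BiP (Hspa5), the Hsp90 chaperone Grp94 (Hsp90b1), lectin chaperones and disulphide isomerases. When unfolded protein accumulates, the sensors IRE1 (Ern1), PERK (Eif2ak3) and ATF6 act in parallel. IRE1 splices the Xbp1 messenger RNA, and the XBP1 and ATF6 factors then raise transcription of chaperone and ERAD genes, while PERK acts through ATF4. Crystallins are cytosolic proteins, and lens fibre cells lose their ER as they mature.

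The ATF6 and XBP1 arms act through short promoter elements, so the promoters of the genes are shown first, as features that the choice of genes by name did not use directly. RefSeq promoters of assembly GRCm38.p6, from 250 bases before to 50 bases after the gene start, were given for 27 of the 33 genes. The ER stress response element (ERSE, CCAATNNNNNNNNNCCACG, read on both strands) had an exact match in 9 of these 27 (33.3%), against 37 of 27025 genes with a promoter (0.137%). ERSE-II (ATTGGNCCACG) matched in 2 of the 27 (7.41%), Herpud1 and Dnajb11, against 12 of all genes (0.0444%). The core of the UPR element (TGACGTGG) matched in 0 of the 27, against 193 of all genes (0.714%), which says only that these letters are not in these windows. ERSE and ERSE-II share the letters CCACG, and no promoter of the 27 held both. ERSE was described from promoters of ER chaperone genes, so its presence here is not independent of how such genes are known.

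The windows below hold every ERSE and ERSE-II match upstream of the gene start among these genes, because they are the sites that the group shares. Each is written 5′ to 3′ on the strand of its gene, with GRCm38.p6 coordinates, and capitals mark the fixed letters of the element. A match read on the opposite strand starts with CGTGG.
Hspa5 (chr2:34772015-34772053, plus strand): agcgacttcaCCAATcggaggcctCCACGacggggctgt
Hsp90b1 (chr10:86705523-86705666, minus strand): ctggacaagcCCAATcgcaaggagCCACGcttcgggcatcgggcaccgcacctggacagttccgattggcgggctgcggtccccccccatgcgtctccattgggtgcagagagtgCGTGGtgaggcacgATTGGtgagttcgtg
Dnajc3 (chr14:118937817-118937855, plus strand): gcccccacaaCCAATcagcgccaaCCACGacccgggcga
Pdia6 (chr12:17266481-17266519, plus strand): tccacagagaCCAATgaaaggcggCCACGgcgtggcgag
Calr (chr8:84847065-84847103, minus strand): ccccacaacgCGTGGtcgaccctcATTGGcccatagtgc
Canx (chr11:50325790-50325828, minus strand): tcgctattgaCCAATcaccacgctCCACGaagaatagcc
Creld2 (chr15:88819510-88819548, plus strand): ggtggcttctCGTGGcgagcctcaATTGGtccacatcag
Syvn1 (chr19:6046522-6046560, plus strand): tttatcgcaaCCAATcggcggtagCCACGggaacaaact
Derl3 (chr10:75893232-75893270, plus strand): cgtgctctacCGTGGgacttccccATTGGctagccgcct
Herpud1 (chr8:94386367-94386397, plus strand): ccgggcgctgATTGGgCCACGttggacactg

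Hsp90b1 was the only one of the 27 promoters with 2 ERSE matches in this window, at -212 to -194 and, on the other strand, at -107 to -89. The other ERSE matches lay between -162 (Calr) and -26 (Syvn1). The ERSE-II match of Dnajb11 lay at 8 to 18 after the start and is not printed.

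**Figure D1:**
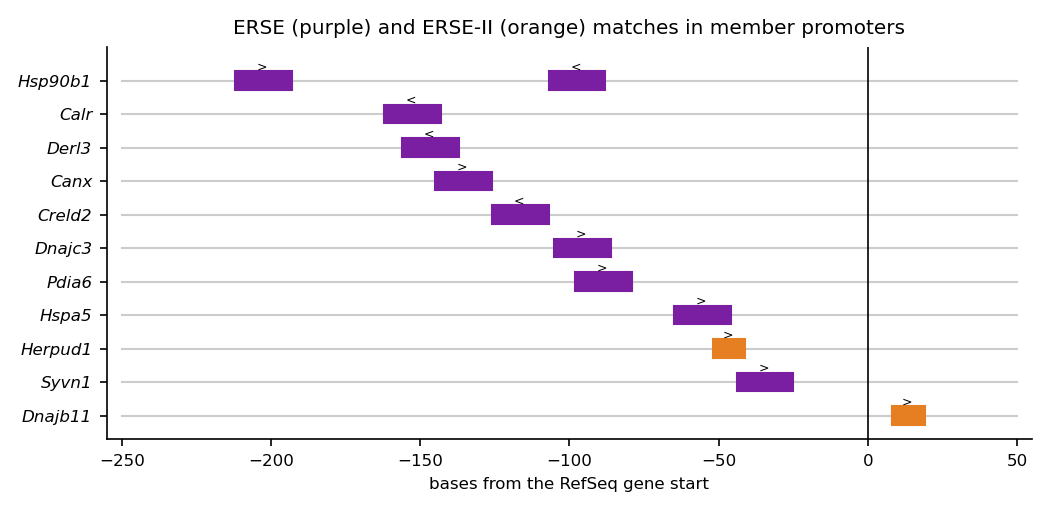
Position of exact ERSE (purple) and ERSE-II (orange) matches in the promoters of 11 of the ER folding and ERAD genes, in bases from the RefSeq gene start on the x axis, with the searched window drawn as a grey line; > marks a match on the strand of the gene and < one on the other strand. All matches lie upstream of the start except that of Dnajb11, at 8 to 18.

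Levels are given below as the log2 of the processed signal over the array's own 75th percentile, so that 0 is that percentile and a difference of 1 is 2-fold. A gene passed the test if its limma p-value, adjusted by Benjamini-Hochberg over all 12785 genes, was under 0.05. The 75th percentile of the signal lay between 167 and 201 on the knock-in arrays and between 120 and 698 on the wild type arrays, and 45.5% to 58.4% of spots were well above background. The 3 knock-in arrays shared 1 scan. Wild type arrays 1 and 2 shared another scan of the same day, and wild type array 3 was scanned on a different day. No scan held both genotypes, so scan and genotype cannot be told apart. Values are also given within the shared day, which leaves wild type array 3 out of the difference, and with the scan as a random block. Neither separates scan from genotype. Within the shared day the genotypes still lie on different scans, and only the wild type arrays lie on more than 1 scan.

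Markers of other cells moved in places. All 11 lens fibre markers with a probe were well above background on every array, as the lens label requires. Their summed linear signal was 606, 604 and 574 on the knock-in arrays, against 1680, 1850 and 723 on the wild type arrays, and 6 of 11 passed as lower. Wild type array 3 lay nearer to the knock-in arrays than to the other wild type arrays. Lens epithelium markers summed to 69.2 to 78.4 in knock-in and 62.0 to 67.1 in wild type lenses, with 1 higher (Pdpn) and 2 lower (Foxe3, Itga6) of 8. Photoreceptor markers stood out on knock-in array 4. The 6 of them summed to 62.5 on that array, to 1.68 and 2.70 on knock-in arrays 1 and 2, and to 0.390 to 0.501 on the wild type arrays, and all 6 were well above background on knock-in array 4 against 2 on each wild type array. Of 2 tested, 1 passed as higher (Prph2). Of 8 leukocyte markers tested, 2 passed as higher (C1qc, Tyrobp) and 1 as lower (Itgam). Both higher ones entered the test only through the knock-in arrays. C1qc was well above background on 4 of the 6 arrays and Tyrobp on 3. With probes required above background on every array 0 were higher and 1 lower, where 26.3% of all genes were called. Leukocyte markers summed to 19.0, 9.83 and 11.3 on the knock-in arrays and to 38.3, 41.2 and 12.9 on the wild type arrays. Most of each sum was Itgam, with log2 levels of 3.33, 2.60 and 2.97 in knock-in and 5.12, 5.21 and 3.51 in wild type lenses. The sums thus mainly follow that 1 gene. Lyz2, Mrc1 and Cx3cr1 were not well above background on any array. None of the 3 tested B and plasma cell markers passed in limma (0 at an unadjusted p under 0.05), and their sums were 1.27 to 1.44 in knock-in and 1.19 to 1.59 in wild type lenses. Of 2 fibroblast markers tested, Col1a2, a chain of collagen I, passed as higher by 3.05 (SE 0.74, limma adjusted p = 0.0244). The other, Pdgfrb, went the other way by -0.53 and did not pass. It had 2.61, 3.02 and 2.70 on the knock-in arrays, against 3.42, 3.26 and 3.25 on the wild type arrays. The fibroblast sums were 9.61 to 13.1 in knock-in and 9.74 to 11.5 in wild type lenses. Lum was not well above background on any array. The part of these cells in the results below was not tested, apart from leaving out single arrays.

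The knock-in was set against wild type to see which ER folding transcripts differ when βB2-crystallin carries the substitution. Most of the ER folding and ERAD genes differed little between the genotypes. Of the 31 tested, 1 rose (Atf6) and 4 fell (Herpud1, Creld2, Xbp1 and Hsp90b1), and 26 did not pass. Atf6 entered the test only through the knock-in arrays, where its probe was above background on all 3, and with probes required above background on every array 0 of 25 rose and the same 4 fell (limma, 7 of 25 at an unadjusted p under 0.05), where 26.3% of all genes were called. The 5 calls are 16.1% of the 31, where 25.9% of all genes tested were called (13.3% higher and 12.6% lower). The median difference over the 31 was -0.01, beside -0.04 over all genes. At an unadjusted p under 0.05 there were 4 higher and 6 lower, where 19.4% and 20.1% of all genes were. The arrays of the genotypes did not overlap for 16 of the 31 genes, 6 above and 10 below, where the same held for 45.9% of all genes (22.7% above and 23.1% below).

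For 24 of the 31 genes the 95% interval of the difference lay inside 2-fold in both directions. These intervals hold for the probe that represents each gene and treat the arrays as independent. They do not cover a shift between scans. An interval reaching a 2-fold rise was seen for 2 of the 31, Atf6 and P4hb. Within the shared scan day 10 of the 31 passed, where 43.5% of all genes did. Of these, 5 were higher (Atf6, Edem1, Os9, P4hb and Ssr1; 19.6% of all genes were higher) and 5 lower (Creld2, Ern1, Herpud1, Hsp90b1 and Xbp1; 24% of all genes were lower). With the scan as a random block limma called 0 of the 31, and 5 at an unadjusted p under 0.05, where 4.85% of all genes were called.

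**Figure D2:**
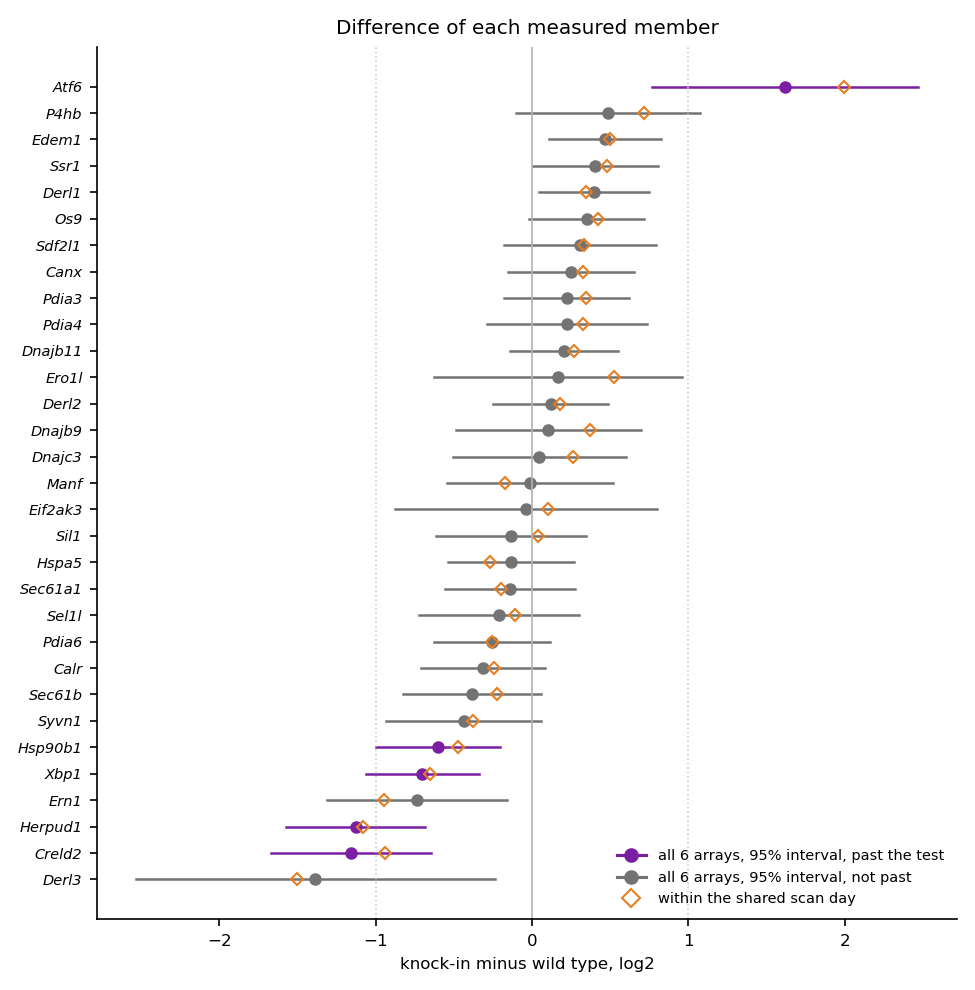
Difference between knock-in and wild type lenses of the 31 tested ER folding and ERAD genes on the log2 scale, with 95% intervals from limma over all 6 arrays (purple past the test, grey not past) and the difference within the shared scan day (open orange diamonds; for Atf6 set against arrays not well above background); dotted lines mark 2-fold. Of the 31 intervals, 24 lie between the dotted lines.

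The ER Hsp70 and Hsp90 chaperones bind folding chains in the lumen, and of the 3 genes of this kind tested 1 fell. Hspa5, which encodes BiP, had 5.23, 5.20 and 5.19 on knock-in replicates 1, 2 and 4, against 5.48, 5.48 and 5.07 on wild type replicates 1, 2 and 3. The knock-in values lay within the range of the wild type ones, and Hspa5 did not pass (-0.14, SE 0.17, adjusted p = 0.598). Its 95% interval ran from -0.54 to 0.27, which leaves out a 2-fold change either way. Hspa5 was -0.27 within the shared day (adjusted p = 0.113) and turned to 0.21 after quantile normalization (adjusted p = 0.333).

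Hsp90b1, which encodes Grp94 and carries 2 of the ERSE matches shown above, had 4.12, 4.17 and 4.16 on the knock-in arrays, against 4.62, 4.63 and 5.01 on the wild type arrays. Every knock-in array was below every wild type array, and wild type array 3 was the highest. Hsp90b1 fell by 0.60 (log2, SE 0.17, limma adjusted p = 0.0394). This call was lost when any of the 6 arrays other than wild type 3 was left out (adjusted p from 0.0832 to 0.133), with median scaling (adjusted p = 0.144), quantile normalization (-0.41, adjusted p = 0.153) and normexp (adjusted p = 0.251), without the filter on dim probes (adjusted p = 0.116) and with the scan as a random block (adjusted p = 0.224). The difference lay between -0.67 and -0.41 in all 16 alternatives. Sil1, a nucleotide exchange factor of BiP, differed by -0.13 (SE 0.20) with overlapping groups.

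The J-domain proteins direct BiP to its clients. Dnajb9 (ERdj4), Dnajb11 (ERdj3) and Dnajc3 (P58IPK) differed by 0.11, 0.21 and 0.05, and none of the 3 passed in limma, with 0 at an unadjusted p under 0.05. Dnajb11 had 2.42, 2.35 and 2.34 on the knock-in arrays, against 2.14, 2.06 and 2.29 on the wild type arrays. Its groups did not overlap, but the gap was 0.05 between the nearest arrays and the adjusted p was 0.337. For Dnajb9 and Dnajc3 wild type array 3 was the highest of all 6 arrays, and within the shared day their differences were 0.37 (adjusted p = 0.0863) and 0.26 (adjusted p = 0.243).

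Disulphide bonds are made in the ER by isomerases that Ero1l (Ero1a in RefSeq) keeps oxidised. None of the 5 genes of this kind passed in limma (0 at an unadjusted p under 0.05), with differences from -0.26 for Pdia6 to 0.49 for P4hb. P4hb, the classical protein disulphide isomerase and also a subunit of collagen prolyl hydroxylase, had 1.81, 1.58 and 1.34 on the knock-in arrays, against 0.94, 0.78 and 1.56 on the wild type arrays. Wild type array 3 lay among the knock-in values, and the difference of 0.49 (SE 0.25) had an adjusted p of 0.192. Within the shared day P4hb was higher by 0.72 (adjusted p = 0.0207). Pdia3, the isomerase that works with the lectin chaperones, differed by 0.22, Pdia4 by 0.22 and Ero1l by 0.17, each with overlapping groups.

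The lectin chaperones calreticulin and calnexin hold glycoproteins while they fold, and both genes carry an ERSE. Calr had 2.34, 2.15 and 1.96 on the knock-in arrays, against 2.39, 2.41 and 2.60 on the wild type arrays, so that it was lower on each knock-in array. Canx had 3.48, 3.73 and 3.86 on the knock-in arrays, against 3.36, 3.37 and 3.60 on the wild type arrays. Their differences were -0.31 (SE 0.17, adjusted p = 0.213) and 0.25 (SE 0.17, adjusted p = 0.322), of opposite sign, and neither passed. Neither had an unadjusted p under 0.05.

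Sdf2l1, Manf and Creld2 encode small luminal proteins that are induced in ER stress. Creld2, an ER protein with disulphide isomerase activity, had 1.14, 1.23 and 1.33 on the knock-in arrays, against 2.16, 2.19 and 2.82 on the wild type arrays. The groups stood apart by 0.83, and the probe had 10 spots per array. Creld2 fell by 1.16 (log2, SE 0.22, limma adjusted p = 0.00976), by 0.94 within the shared day (adjusted p = 0.00277) and by 0.94 to 1.27 with any single array left out (adjusted p from 0.00301 to 0.0471). With the scan as a random block its adjusted p was 0.0741, and with normexp background correction 0.0548. Manf, a secreted neurotrophic factor, differed by -0.01 (SE 0.23) and Sdf2l1 by 0.31 (SE 0.21), and on wild type arrays Sdf2l1 spread less than on knock-in arrays.

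**Figure D3:**
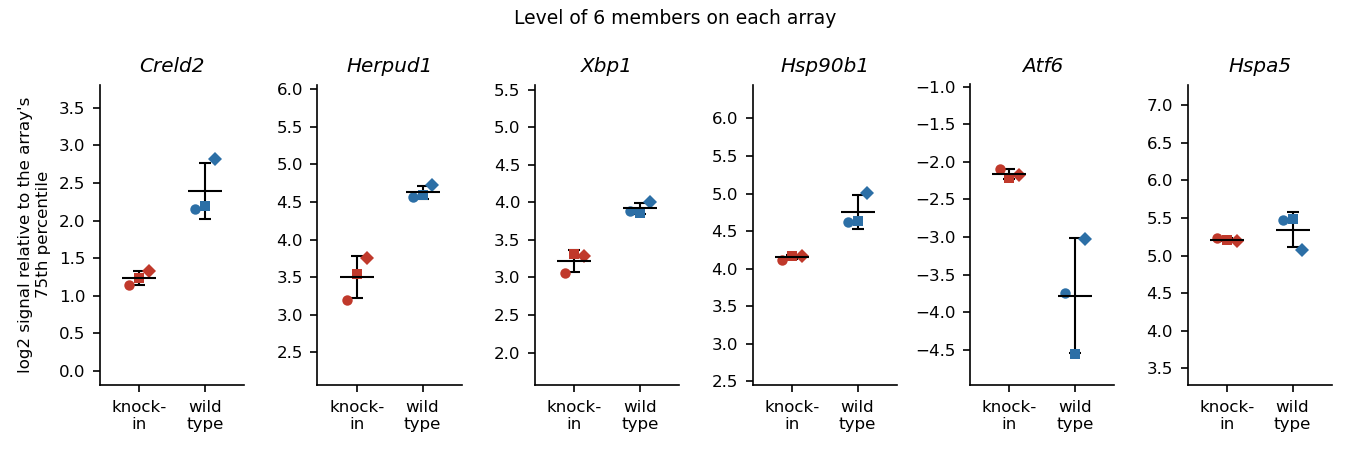
Log2 signal relative to the array's 75th percentile for Creld2, Herpud1, Xbp1, Hsp90b1, Atf6 and Hspa5 on each array (circles replicate 1, squares replicate 2, diamonds knock-in replicate 4 or wild type replicate 3), with mean and SD (n = 3 each); every panel spans 4 log2 units. Knock-in arrays lie below all wild type arrays for the first 4 genes and above them for Atf6, and overlap for Hspa5.

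ERAD takes misfolded proteins out of the ER to the proteasome. Its membrane core is the ubiquitin ligase HRD1 (Syvn1) with its partner Sel1l, the Derlins form part of the retrotranslocation path, Edem1 and Os9 recognise glycans, and Herpud1 is a stress-induced membrane protein of the complex. Of the 8 tested, 1 fell and 7 did not pass. Herpud1 had 3.20, 3.55 and 3.76 on the knock-in arrays, against 4.57, 4.59 and 4.73 on the wild type arrays. Every knock-in array was lower than every wild type array by at least 0.81. Herpud1 fell by 1.13 (log2, SE 0.19, limma adjusted p = 0.00657), by 1.08 within the shared day (adjusted p = 0.00648) and by 0.98 to 1.26 with any single array left out, and it passed in 15 of 16 alternatives. The exception was the scan as a random block (adjusted p = 0.11). The alternatives reuse the same arrays and are not independent checks.

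None of the other ERAD genes passed, in either direction. Edem1 had -0.25, -0.25 and -0.02 on the knock-in arrays, against -0.63, -0.71 and -0.58 on the wild type arrays, a difference of 0.47 (SE 0.15, adjusted p = 0.0619). Os9 differed by 0.35 (SE 0.16, adjusted p = 0.143), with all knock-in arrays above all wild type arrays. Both lay past the test within the shared day, Edem1 at 0.50 (adjusted p = 0.0309) and Os9 at 0.42 (adjusted p = 0.0477). Syvn1 was -0.44 (SE 0.21, adjusted p = 0.168), with every knock-in array below every wild type array, and Sel1l was -0.21 (SE 0.22) with overlapping groups. Syvn1 has an ERSE at -44 to -26 and neither Sel1l nor Edem1 has an exact match.

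The Derlins gave no single direction. The probes that represent Derl1 and Derl2 differed by 0.39 (SE 0.15, adjusted p = 0.0951) and 0.12 (SE 0.16, adjusted p = 0.605). Derl3 had -3.74, -5.45 and -3.56 on the knock-in arrays, none of them well above background, against -2.85, -2.64 and -3.10 on the wild type arrays. It did not pass (adjusted p = 0.0771). With the knock-in signals set no lower than the lowest signal well above background of each array, Derl3 was 1.35-fold lower, which is not a strict limit. After normexp background correction its difference turned to 0.14, and it passed as lower with median scaling and after quantile normalization.

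Of the 3 sensors and Xbp1, 1 rose and 1 fell. Atf6 had -2.09, -2.22 and -2.17 on the knock-in arrays, all well above background, against -3.75, -4.56 and -3.03 on the wild type arrays, with only array 3 well above background. The knock-in arrays agreed within 0.12 and the wild type arrays spread over 1.52. Atf6 rose by 1.62 (log2, SE 0.36, limma adjusted p = 0.018), a size set partly against background. It lost the call when any 1 knock-in array or wild type array 1 was left out (adjusted p from 0.0525 to 0.0662), with the scan as a random block (adjusted p = 0.165) and with normexp background correction (0.48, adjusted p = 0.288). Within the shared day neither wild type array was well above background. Atf6 was higher there by 1.99 (limma adjusted p = 0.00197), again a size set against background. With the wild type signals set no lower than the lowest signal well above background of each array, Atf6 was 3.08-fold higher. That signal is not a detection limit, so the true difference may be smaller.

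Xbp1 had 3.06, 3.31 and 3.29 on the knock-in arrays, against 3.88, 3.86 and 4.01 on the wild type arrays. All knock-in arrays were lower, and each group spread over less than their gap of 0.55. Xbp1 fell by 0.70 (log2, SE 0.15, limma adjusted p = 0.0174) and by 0.65 within the shared day (adjusted p = 0.0123). The call was lost when knock-in array 2, or wild type array 1 or 2, was left out (adjusted p from 0.0631 to 0.0766) and with the scan as a random block (adjusted p = 0.186). It was also lost with median scaling (adjusted p = 0.0789), with normexp (adjusted p = 0.175) and without the filter on dim probes (adjusted p = 0.0673). The array has 1 probe for Xbp1, and spliced and unspliced Xbp1 were not measured apart.

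Ern1, which encodes the kinase and nuclease that splices Xbp1, had -2.48, -3.04 and -2.78 on the knock-in arrays, against -1.86, -1.78 and -2.46 on the wild type arrays. Wild type array 3 lay just above the highest knock-in array. Ern1 did not pass (-0.73, SE 0.24, adjusted p = 0.0661), and within the shared day it was -0.95 (adjusted p = 0.00988). Eif2ak3 (PERK) had -0.99, -0.08 and 0.39 on the knock-in arrays, against -0.40, -0.25 and 0.10 on the wild type arrays. Its knock-in arrays enclosed all wild type arrays, and the difference of -0.04 (SE 0.35, adjusted p = 0.948) had an interval from -0.87 to 0.80.

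The translocon genes feed the ER with new chains. Sec61a1, which encodes the channel, differed by -0.14, Sec61b, a small channel subunit, by -0.38, and Ssr1, a subunit of the translocon-associated complex, by 0.41. None of the 3 passed in limma, with 1 at an unadjusted p under 0.05 (Ssr1, adjusted p = 0.123). Sec61b was lower on all knock-in arrays and Ssr1 higher on all of them than on any wild type array.

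**Figure D4:**
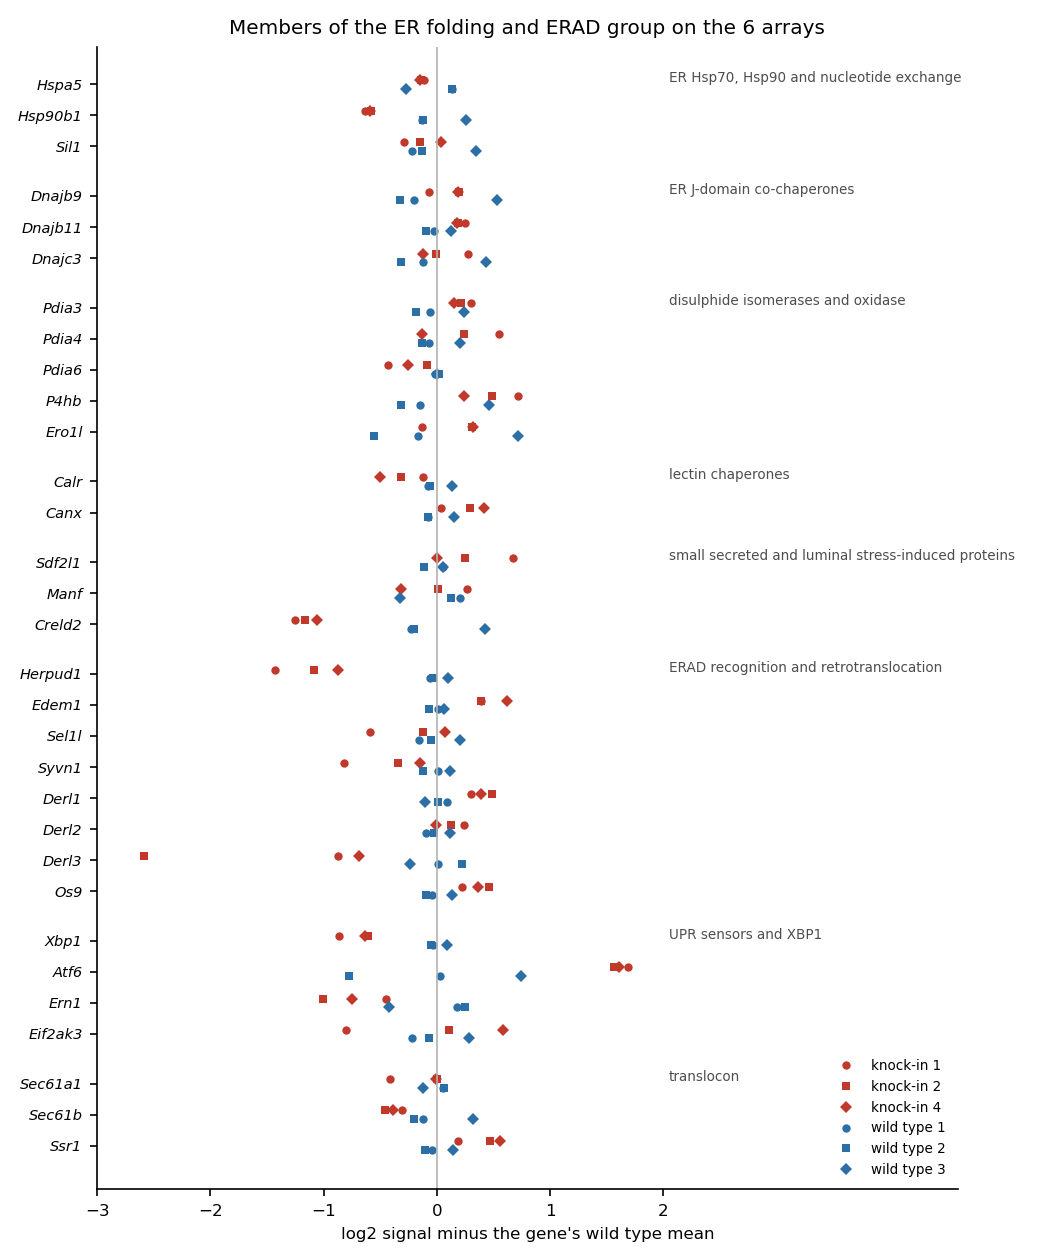
Log2 signal of the 31 tested ER folding and ERAD genes on each array minus the wild type mean of the gene, grouped by role, with knock-in arrays in red above wild type arrays in blue. The gap between the genotypes is widest for Creld2, Atf6 and Herpud1, at 0.81 to 0.83.

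Probes of the same gene did not always move alike. Of the 6 genes with more than 1 probe kept, 4 had probes of both signs. The 3 probes of Derl2 differed by 1.09 (adjusted p over all probes = 0.0164), 0.12 and -0.65, and those of Ssr1 by 0.92 (adjusted p over all probes = 0.00856), 0.41 and -0.62. Derl1 had 0.39 and -0.47, and Dnajb9 had 0.11 and -0.53. The probes of Pdia6 (-0.26 and -0.83) and of Sec61b (-0.38 and -0.78) shared a sign, and in both the probe that does not represent the gene passed over all probes (adjusted p = 0.0178 for Pdia6 and 0.0401 for Sec61b). With the mean of a gene's probes Pdia6 and Sec61b passed as lower, at -0.55 (adjusted p = 0.0405) and -0.58 (adjusted p = 0.025), and Derl1 was -0.04. Which transcripts each probe binds was not tested.

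Wild type array 3 set much of the spread. It was the highest wild type array for 24 of the 31 genes and the lowest for 6, and the median SD of the wild type group was 0.19 with it and 0.05 without it, beside 0.19 in the knock-in group. Without wild type array 3, 4 of the 31 were higher and 5 lower, where 43.3% of all genes were called. Without knock-in array 4, which carried the photoreceptor signal, 0 were higher and 3 lower (Creld2, Herpud1 and Xbp1; 7 of 31 at an unadjusted p under 0.05 in limma), where 18.6% of all genes were called. The 31 held 3 calls without knock-in array 1 (19.4% of all genes), 2 without knock-in array 2 (12% of all genes), 2 without wild type array 1 (13.2% of all genes) and 3 without wild type array 2 (14.3% of all genes). Median scaling called 4 of these genes (21.9% of all genes), quantile normalization 6 (27.7%), normexp 1 (11.2%), no filter on dim probes 3 (9.69%) and the mean of a gene's probes 7 (25.8%). The replicate number as a block called 7 (42.6% of all genes).

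The ER folding and ERAD genes, which were chosen by name, were also grouped by whether the promoter held an ERSE or ERSE-II match. The 11 members with such a match were all tested and 3 of them fell (Creld2, Herpud1 and Hsp90b1) with none higher, a median difference of -0.31 and a range from -1.38 to 0.25, where 12.6% of all genes fell. None of the 3 passed with the scan as a random block (5 of the 31 at an unadjusted p under 0.05 in limma), and Hsp90b1 passed in 5 of 16 alternatives. Among the other 38 genes with a match 15 were tested, with 1 higher, 3 lower and a median of 0.12. The 16 members with a promoter and neither element, 15 of them tested, had 1 lower (Xbp1), none higher and a median of 0.17. The differences between these groups were not tested.

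The wider ER pathway was described with 8 further lists of 127 genes, 113 of them tested. Of these, 18 rose and 6 fell (21.2% called, where 25.9% of all genes were), with a median difference of 0.08. Without single arrays the number higher lay between 6 (without wild type array 1, or without wild type array 2) and 28 (without wild type array 3). Of all genes 13.2%, 14.3% and 43.3% were called without wild type arrays 1, 2 and 3. The number higher was 11, 7 and 12 without knock-in arrays 1, 2 and 4, where 19.4%, 12% and 18.6% of all genes were called. The number lower was 11 without wild type array 3 and 2 or 3 without each other array. With the scan as a random block 0 were called in both directions, where 4.85% of all genes were called.

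Other thiol oxidoreductases held no call in limma among 13 tested (1 at an unadjusted p under 0.05), from -0.47 to 0.38. In the lectin cycle 2 of 11 rose, Uggt1, the glucosyltransferase that senses unfolded glycoproteins, by 1.03 (adjusted p = 0.00717) and Mcfd2, a cargo receptor subunit, by 0.59. Of 10 oligosaccharyltransferase genes 2 rose, the alternative subunits Tusc3 by 1.41 (adjusted p = 0.00403) and Magt1 by 0.70. Of 23 other ERAD factors 3 rose and 3 fell, among them Erlin1 at 0.76, Faf2 at 0.68, Dnajb12 at -0.73 and Ube2g2, a ubiquitin-conjugating enzyme of ERAD, at -1.98 (adjusted p = 0.00771). Of 22 translocation and signal peptidase genes 4 rose and 1 fell, with Sec63 at 1.45, Spcs3 at 0.78 and Sec61g at -0.84.

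Of 8 other UPR regulators 3 rose and none fell. Wfs1, which encodes wolframin, rose by 1.33 (SE 0.17, adjusted p = 0.00245), and Creb3l1, a membrane-bound transcription factor related to ATF6 that is known for collagen-secreting cells, by 1.35 (SE 0.19, adjusted p = 0.00351). Of 16 collagen folding genes 2 rose and 1 fell, with Fkbp10 at 0.72, P3h3 (Leprel2) at 0.96 and P4ha2 at -0.68. Of the 2 fibroblast markers given above, Col1a2 was higher as well and Pdgfrb was not, and the part of fibroblasts was not tested. Of 10 other ER chaperones 2 rose and 1 fell, Mesd (Mesdc2), a chaperone of LDL receptor family proteins, at 0.99, Tor1a at 0.73 and Dnajb2 at -0.76. Leaving out single arrays ended the calls of Mcfd2, Magt1, Erlin1, Faf2, Dnajb12, Sec63, Spcs3, Fkbp10, P3h3, P4ha2, Tor1a and Dnajb2 (adjusted p from 0.0504 to 0.141). The call of Uggt1 was lost with the mean of its probes (0.54, adjusted p = 0.11). The calls of Wfs1, Creb3l1, Tusc3, Mesd, Ube2g2, Sec61g and Uggt1 stayed past the test with any single array left out, and with the scan as a random block none of these 7 passed (adjusted p from 0.0566 to 0.124).

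The ATF4 targets were left out of the group and are set beside it here, from the same fit and arrays. The activity of PERK was not measured, and the cause of changes in ATF4 targets was not tested. Of 20 ATF4 targets 11 rose and 2 fell (65% called, where 25.9% of all genes were), with a median difference of 0.94. For the ER folding and ERAD genes 1 was higher and 4 lower of 31, with a median of -0.01. The rises included Trib3 at 6.44 (limma adjusted p = 5.24e-05) and Chac1 at 4.40 (adjusted p = 0.000144). The falls were Ppp1r15a at -1.26 (adjusted p = 0.00264) and Sesn2 at -0.98 (adjusted p = 0.0347). Trib3 entered the test only through the knock-in arrays, since only 2 wild type arrays were well above background. Its wild type levels were -3.43, -3.84 and -2.77, so the size of 6.44 was set partly against background. Among 15 cytosolic heat shock proteins 4 rose and 3 fell (46.7% called, beside the same 25.9% of all genes), with a median of -0.29. They included Hspb8 at 2.92, Hsph1 at 1.15, Stip1 at -0.83 and Ahsa1 at -0.77. With the scan as a random block 1 of the 15 was higher and 0 lower (4.85% of all genes called). With normexp 2 were higher and 5 lower (11.2% of all genes called). Without knock-in array 2 the counts were 2 and 0 (12% of all genes called). Without wild type array 1 or 2 they were 2 and 1 (13.2% and 14.3% of all genes called). Without wild type array 3 they were 3 and 6 (43.3% of all genes called). Leaving out single arrays ended the calls of Sesn2, Ahsa1 and Stip1 (adjusted p from 0.0533 to 0.12). With the scan as a random block 7 ATF4 targets were still higher and 1 lower, and 0 of the 31 ER folding and ERAD genes passed. That fit called 4.85% of all genes, so 0 of 31 is near that share. The difference between the lists was not tested.

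**Figure D5:**
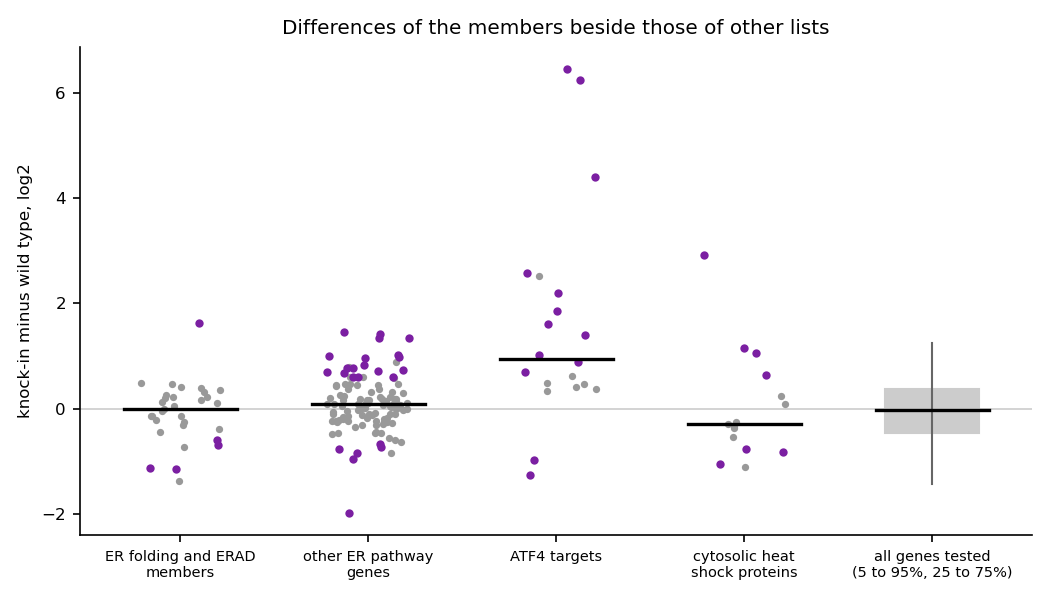
Differences between knock-in and wild type lenses on the log2 scale for the tested ER folding and ERAD genes, other ER pathway genes, ATF4 targets and cytosolic heat shock proteins (purple past the test, grey not past, black line the median), and for all 12785 genes (thin line 5% to 95%, box 25% to 75%). The median lies at -0.01 for the ER folding and ERAD genes and at 0.94 for the ATF4 targets.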

How the data were processed

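Lens RNA was measured on Agilent 1-colour arrays with Cy3, per the labels. The deposited values are spot intensities from the scanner. Per the file headers, Feature Extraction 11.0.1.1 subtracted the background (9.1 in the submitters' processing notes), and the authors' scaling across arrays is not stated there. From the deposited signal the log2 value was computed and centred on the 75th percentile over 43020 non-control spots of the array. Outlier spots were left out and spots averaged. A probe was kept if at least 50% of its spots were well above background on all arrays of at least 1 genotype (21076 of 39429). The files give accessions; 27234 probes were named through RefSeq accessions of GRCm38.p6. The kept probe with the highest mean stood for each gene. Knock-in minus wild type was fitted with limma 3.58.1 in R 4.3.3 over 12785 genes and 6 arrays. The procedure was tested on simulated data. The group of genes, the lists and the motifs were chosen with earlier results of these data known. All 33 genes are named, and of each other list up to 2 genes with the smallest p in each direction. Over 399 probes spotted at least 10 times, arrays of a genotype differed by over 2 standard errors in 43.6% to 96.2% of them, so no array was a copy of another; each counted as 1 sample by its label, and separate animals are not shown by this. Replicate numbers 1 and 2 occur in both genotypes, but nothing ties same-numbered arrays together (correlations of 0.17 and -0.22 between their deviations). Alternatives covered scaling, background (normexp, offset 50, on median signals, since mean spot signals are not used here), filters, flags, probes, scan, scan day, the replicate number and single arrays. Protein sequences were not used here, so the planned count of retrieval signals was not made.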

Additional observations from a re-analysis of the deposited data

How the results depend on the processing

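The number of ER folding and ERAD genes called lay between 0 and 10 of 31 over the settings run. The share of all genes called lay between 4.85% (scan as a random block) and 43.5% (scan day as a block). Against 1 higher and 4 lower of 31, normexp gave 0 higher and 1 lower, probes above background on all arrays gave 0 higher, no filter gave 2 lower, and the scan as a random block gave 0 in both directions. The scan day as a block gave 5 higher. Leaving out single arrays gave 0 to 4 higher and 2 to 5 lower. For the other ER pathway genes (18 higher, 6 lower), 8 were higher with median scaling, 9 with normexp (2 lower) and 8 without the filter (3 lower). Of all genes 21.9%, 11.2% and 9.69% were called in these fits. The random block gave 0 and 0, the scan day 11 lower, and single arrays left out gave 6 to 28 higher and 2 to 11 lower. With single arrays left out 12% to 43.3% of all genes were called. With the replicate number as a block, 2 of the 31 were higher and 5 lower, and 28 and 10 of the other ER pathway genes (42.6% of all genes called). These arrays share only a number, and that fit rests on replicates 1 and 2, since 3 and 4 each occur in 1 genotype. Under it Hsp90b1 did not pass (-0.48, adjusted p = 0.0691). Arrays centred on their median gave 40.9% of calls over all genes as higher, against 51.2%. Differences that did not pass changed sign in places, and did not pass there either. They were 0.21 for Hspa5, 0.068 for Manf and 0.18 for Sec61a1 after quantile normalization. With normexp they were -0.075 for Dnajb9, 0.14 for Derl3 and 0.092 for Sec61a1. With the mean of probes they were -0.21 for Dnajb9 and -0.040 for Derl1. With the random block they were -0.021 for Dnajc3 and 0.042 for Manf, and within the scan day 0.040 for Sil1 and 0.10 for Eif2ak3. Leaving out single arrays gave -0.243 to 0.040 for Sil1, -0.058 to 0.370 for Dnajb9, -0.110 to 0.265 for Dnajc3, -0.113 to 0.526 for Ero1l, -0.175 to 0.142 for Manf and -0.348 to 0.345 for Eif2ak3. The causes were not tested. With 3 arrays a group, an exact permutation test of 1 gene cannot go below 0.1.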

Other observations

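Among the 38 genes outside the ER folding and ERAD group with an ERSE or ERSE-II in their promoter, 1 was higher (Lrif1) and 3 lower (Alg12, Calr4 and Spats2l) of 15 tested. Calr4, a gene of the calreticulin family that was chosen here after its values were seen, had no knock-in array well above background. It entered the test only through the wild type arrays, where it was higher than in knock-in lenses. Its limma adjusted p of 0.000582 is given as a description only, since the gene was picked by its values. With the knock-in signals set no lower than the lowest signal well above background of each array, Calr4 was 4.95-fold lower, which is not a strict limit. Calr, its family member in the group, did not pass (-0.31, adjusted p = 0.213).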
